A study of Homo sapiens with 66 samples.

Results

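Krüppel-like factors (KLFs) are zinc finger transcription factors, and 10 of them were followed through RNA-seq of DLD-1 cells, an epithelial line from a human colorectal cancer. They are KLF2, KLF3, KLF4, KLF5, KLF6, KLF9, KLF10, KLF11, KLF13 and KLF16, matched by symbol to the Ensembl gene identifiers of the count files. They were chosen by name, with earlier results of these data known. All 10 were found among 58051 genes, and all 10 were among the 17812 genes with enough counts to be tested. The 66 libraries fall into 22 groups of 3. In 6 lines both copies of a gene carry a degron (AID), a short tag through which auxin triggers destruction of the protein, and the cells also express the plant ubiquitin ligase subunit TIR1 that the degron needs. The tagged proteins are TPR, NUP153 and NUP50, which form the basket on the nuclear side of the nuclear pore, RANGAP1, which drives protein transport through the pore, NXF1, the main export receptor for mRNA, and GANP, the scaffold of the TREX-2 export complex. AID-TPR, NUP153-AID, RANGAP1-AID and AID-NXF1 cells were untreated or kept in 1 mM auxin for 2 h, and NUP50-AID and AID-GANP cells for 3 h. A longer exposure is represented by 8 h libraries of AID-TPR, NUP153-AID and RANGAP1-AID cells and 9 h libraries of NUP50-AID cells. The AID-TPR libraries come in 2 label sets, plain and old, and only the old set has 8 h libraries. AID-TPR cells were also given Actinomycin D (ActD), an inhibitor of transcription, for 2 h with or without auxin, and parental DLD-1 cells, which carry no degron, were labelled untreated or auxin for 2 h.

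KLFs bind GC-rich and CACCC-like sequences through zinc fingers at the C terminus, and differ in the protein that the rest of the chain recruits. KLF2, KLF4, KLF5 and KLF6 mostly activate transcription, KLF3 recruits the corepressor CtBP, and KLF9, KLF10, KLF11, KLF13 and KLF16 can recruit the corepressor Sin3A. In the gut, KLF5 is known from the dividing cells of the crypt and KLF4 from the differentiated cells above them, and several family members, KLF2, KLF4, KLF6 and KLF10 among them, have short-lived RNAs that respond to stimuli within hours.

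The genes are spread over the genome (GRCh38). KLF9 (chr9:70384604-70414657) and KLF4 (chr9:107484852-107490482) share chromosome 9, and KLF16 (chr19:1852399-1863579) and KLF2 (chr19:16324826-16328685) share chromosome 19. KLF11 is at chr2:10042849-10054836, KLF3 at chr4:38664197-38701517, KLF6 at chr10:3775996-3785281, KLF5 at chr13:73054976-73077541 and KLF13 at chr15:31326835-31435665. On the opposite strand KLF3-AS1 overlaps exons of KLF3, ENSG00000267125 those of KLF16 and ENSG00000271787 those of KLF11. Their median counts per library were 25, 71 and 8, against 1523, 668 and 369 for the KLF genes. The strand setting of the counting is not given in the sources used here, so reads of these pairs cannot be told apart.

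RefSeq start sites were found for 8 of the members, with 10 windows of 300 bases, from 250 before the start to 50 after it, on GRCh38.p14. Of the 3 windows shown, that of KLF4 (chr9:107489720-107490019, minus strand) belongs to the gene called higher in the most protein losses. The window of KLF9 (chr9:70414608-70414907, minus strand) belongs to the gene called lower in the most, and the second of the KLF11 windows (chr2:10043971-10044270, plus strand) to the gene called in opposite directions after loss of NXF1 and of GANP. Capitals mark the GC box GGGCGG on either strand and the cyclic AMP response element TGACGTCA.
KLF4: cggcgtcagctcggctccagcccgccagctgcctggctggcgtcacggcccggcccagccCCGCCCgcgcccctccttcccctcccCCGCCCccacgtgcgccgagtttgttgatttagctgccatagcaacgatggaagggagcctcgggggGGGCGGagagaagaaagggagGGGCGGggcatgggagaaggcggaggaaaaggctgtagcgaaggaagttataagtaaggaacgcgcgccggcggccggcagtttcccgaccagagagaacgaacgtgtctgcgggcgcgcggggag
KLF9: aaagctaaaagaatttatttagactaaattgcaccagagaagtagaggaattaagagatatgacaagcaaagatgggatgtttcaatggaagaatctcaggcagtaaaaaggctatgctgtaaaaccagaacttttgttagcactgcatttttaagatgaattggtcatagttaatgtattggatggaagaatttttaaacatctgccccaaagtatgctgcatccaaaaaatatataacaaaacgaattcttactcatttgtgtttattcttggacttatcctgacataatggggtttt
KLF11: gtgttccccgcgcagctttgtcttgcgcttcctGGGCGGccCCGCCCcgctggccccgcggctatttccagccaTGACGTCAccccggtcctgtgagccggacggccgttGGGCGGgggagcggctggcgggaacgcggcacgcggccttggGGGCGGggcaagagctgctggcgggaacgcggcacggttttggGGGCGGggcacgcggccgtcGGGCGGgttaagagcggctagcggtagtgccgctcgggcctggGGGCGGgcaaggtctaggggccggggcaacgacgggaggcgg
The KLF4 window holds 4 GC boxes and is 69.0% G or C, the KLF11 window holds 7 and is 75.3%, and the KLF9 window holds 0 and is 32.7%. A GC box stands in 45.0% of all 35116 RefSeq windows, and their median G or C content is 58.7%. A GC box stood in at least 1 window of 7 of the 8 members, of which KLF5 and KLF11 have more than 1 window. Counts of members here are by gene, and shares of all are by window. The member windows with a GC box were 69.0% (KLF4) to 86.0% (KLF16) G or C. The TGACGTCA element stood in KLF11 alone among them, and in 1.85% of all windows. A MEF2 site, the element through which the kinase ERK5 is known to drive KLF2, stood in KLF2 alone and in 0.572% of all windows. CACCC stood in windows of 3 members and in 59.9% of all. KLF3 and KLF10 have no window here.

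Libraries held 18943661 to 55411411 counts (median 32285399), and replicates differed by more than counting noise in all 66 pairs. The files were counted in more than one way: 24 libraries (DLD-1, AID-GANP, AID-NXF1 and plain AID-TPR) hold no mitochondrial counts and 42 hold them. KLF13 was the only member whose values followed this split without overlap, at 23.2 to 60.1 CPM (counts scaled to a common library size) in the 24 and 1.69 to 6.56 CPM in the 42. Untreated AID-TPR cells had a mean KLF13 level of 44.3 CPM in the plain set and 4.76 CPM in the old set, a ratio of 9.31 within 1 line, where the label set and the way of counting cannot be told apart. Every fold change was therefore taken between libraries of 1 line that alike hold or lack mitochondrial counts, and differences between lines or sets are differences of such fold changes. Epithelial markers were high in every library, with a summed level of 5710 to 16500 CPM over 8 genes, while CDX1 was at 0 in 29 libraries. The 8 markers of blood cells, endothelium and fibroblasts summed to 0.0537 to 9.0 CPM, and DCN, COL3A1 and CDH5 were at 0 in 52, 45 and 44 libraries.

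One check went against labels. CYP1A1, a gene known to respond to indole compounds such as auxin through the aryl hydrocarbon receptor, had positive log2 fold changes, 1.14 to 6.68, in all 11 comparisons of protein loss, 9 of them with an adjusted p under 0.05. In DLD-1 cells it had 201, 181 and 169 CPM in the libraries labelled untreated and 14.5, 14.2 and 9.54 CPM in those labelled auxin, a log2 fold change of −3.84 ± 0.13 (SE; edgeR adjusted p = 8.22e-07). The libraries labelled auxin in DLD-1 are therefore named by their label, and no member was called there. Since none of the genes removed from the calls of other lines for being called in DLD-1 was a KLF, that removal changed no call on a KLF gene. The DLD-1 libraries are the only ones with auxin and no degron, and they cover 2 h alone. With their labels in doubt, an effect of auxin itself on a member cannot be told apart from that of protein loss. For the exposures of 8 h and 9 h no such libraries exist. The tagged genes themselves give no check, because the degron removes protein and not mRNA.

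In the DLD-1 libraries labelled untreated KLF5 was the most abundant of the 10 per length, at 45.7 ± 4.86 CPM per kilobase of exon (SD, n = 3). KLF10 followed at 15.2 ± 4.01, and KLF4 at 8.58 ± 1.24, KLF9 at 6.81 ± 1.11 and KLF3 at 6.43 ± 0.2 CPM per kilobase came next. KLF16 had 6.06 ± 0.316, KLF6 5.24 ± 0.414, KLF13 4.25 ± 0.21, KLF11 3.05 ± 0.83 and KLF2, known for its role in endothelium, 0.597 ± 0.0595 CPM per kilobase. The ranges of the 3 libraries overlapped between KLF4 and KLF9, between KLF9 and KLF3 and between KLF3 and KLF16, and were separate for the other neighbours in this order. In the DLD-1 libraries labelled auxin KLF5 and KLF10 also led, at 40.7 and 15.4 CPM per kilobase, but KLF4 (6.32), KLF16 (6.22), KLF3 (6.15) and KLF9 (5.31) followed in another order. Over the untreated groups of all lines, the mean of KLF5 lay between 31.7 and 64.3 and that of KLF2 between 0.285 and 1.03 CPM per kilobase, so KLF2 rested on 16 to 235 reads per library and KLF5 on 2613 to 10253.

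**Figure D1:**
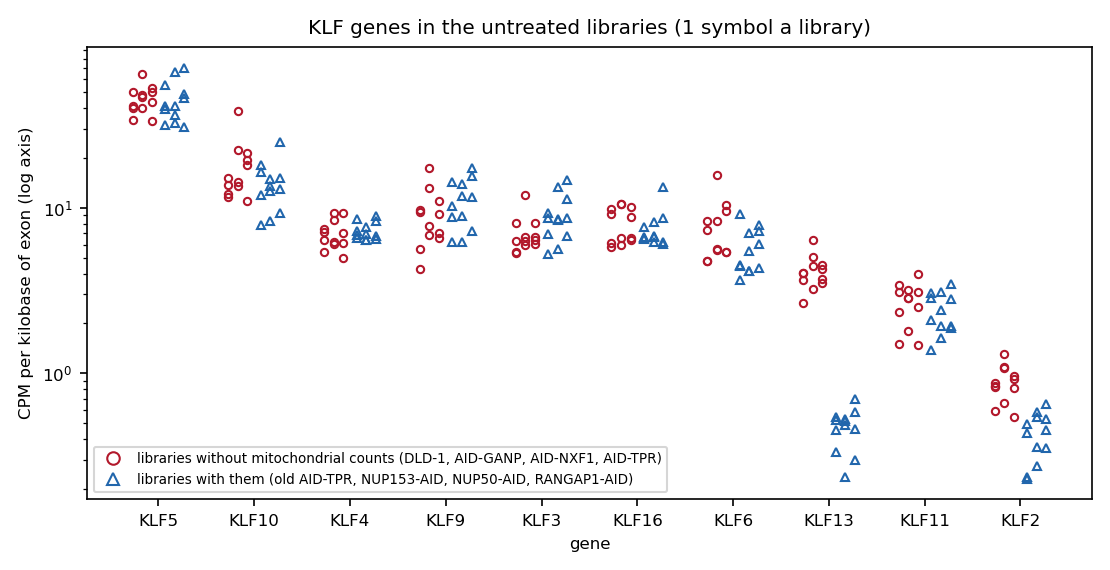
Levels of the 10 KLF genes in untreated cells, in CPM per kilobase of exon on a log axis, with 1 symbol for each library. Circles are the lines counted without mitochondrial genes and triangles those counted with them. KLF5 stands highest in DLD-1 cells at 45.7 CPM per kilobase and KLF2 lowest at 0.597, and KLF13 alone splits without overlap between circles and triangles.

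Calls required an adjusted p under 0.05 (edgeR's quasi-likelihood test, Benjamini-Hochberg over all tested genes) and a ratio to the control of 1.3 or more, or of 0.7 or less. After 2 h without TPR, 1 of 10 members was called, KLF16, against 0.477% of all tested genes. In the old libraries, 1 member, KLF4, was called at 2 h (0.444% of all genes) and 2, KLF4 and KLF10, at 8 h (3.59%). NUP153 loss gave 0 members at 2 h (0.0225%) and KLF9 at 8 h (1.32%), and NUP50 loss gave 0 at 3 h (0.18%) and 0 at 9 h (0.365%). At 2 h of NUP153 loss 4 members had an unadjusted p under 0.05 and DESeq2 called 1, against 667 and 38 of all genes. At 3 h of NUP50 loss these counts were 4 and 0, against 1091 and 92 of all genes. At 9 h they were 4 and 1, against 2940 and 154. RANGAP1 loss gave KLF4 at 2 h (0.545%) and KLF4, KLF9 and KLF10 at 8 h (14.8%). Loss of NXF1 for 2 h gave 4 members against 8.12% of all genes, all 4 lower, against 5.93% of all genes called lower. Loss of GANP for 3 h gave 6 members, 3 higher and 3 lower, against 15.5%. In DLD-1 cells 0 members were called (0.0561%), 2 had an unadjusted p under 0.05 and DESeq2 called 0, against 558 and 24 of all genes. Over the 11 comparisons of protein loss, KLF4 was called higher 5 times and KLF10 3 times, KLF9 was called lower 4 times and KLF16 2 times, and KLF11 was called once in each direction. KLF3, KLF5 and KLF13 were each called lower once, and KLF2 and KLF6 were not called. These comparisons are not independent, since the short and long exposures of a line share its untreated libraries. Since the members were chosen with earlier results known, the shares of all genes are given for scale only.

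**Figure D2:**
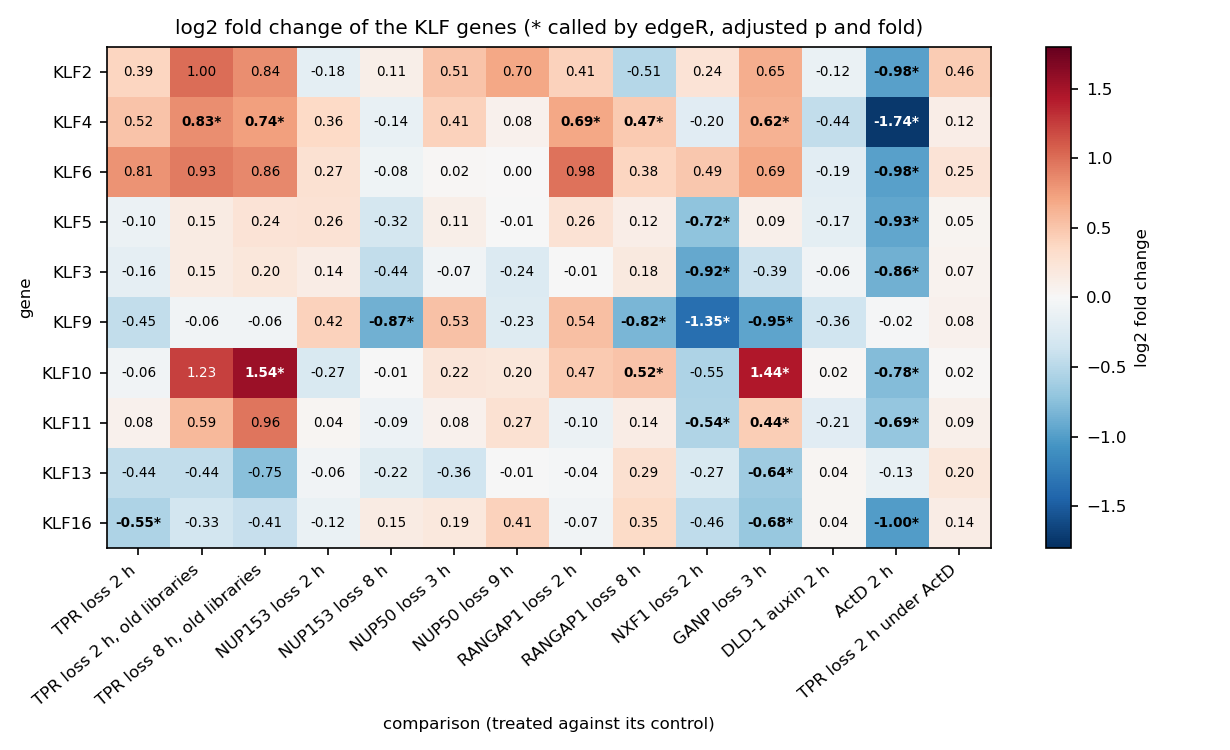
Log2 fold change of each KLF gene (rows) in the 11 comparisons of protein loss, the DLD-1 comparison and the ActD comparisons (columns), as colour and number. Called values are bold with a star, among them KLF10 at 1.54 after 8 h without TPR and KLF9 at −1.35 after loss of NXF1.

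KLF4, which in gut epithelium restrains division, was the member most often called higher. In the old AID-TPR libraries its levels were 31.4, 28.1 and 32.5 CPM untreated, 51.6, 57.5 and 54.1 CPM after 2 h of auxin and 49.2, 53.6 and 50.7 CPM after 8 h. Both auxin groups lay wholly above the untreated libraries, with log2 fold changes of 0.83 ± 0.13 (edgeR adjusted p = 0.0247) and 0.74 ± 0.12 (adjusted p = 0.0193), and 8 h was not shown to differ from 2 h (−0.09 ± 0.13, adjusted p = 1.0). The 2 h call was lost when any 1 of 5 of its 6 libraries was left out and the 8 h call with any 1 of 4, with log2 values of 0.69 to 0.78 at 8 h. In the plain set KLF4 had 19.8, 22.2 and 18.3 CPM untreated and 27.3, 34.2 and 25.3 CPM after auxin. The groups did not overlap, and the log2 fold change was 0.52 ± 0.12 with an adjusted p of 0.104, or 1.54e-08 with the replicate number as a block. A block fit estimates groups and numbers from 6 libraries, which leaves little to measure the spread of a single gene. Its adjusted p values lean on spread pooled over genes, so very small ones here and below do not measure certainty. The change in the old set was not shown to differ from that in the plain set, with an interaction of 0.30 ± 0.18 (adjusted p = 1.0). No gene of the 17812 passed that test (0.0%; 574 had an unadjusted p under 0.05 and DESeq2 found 4), nor did any member, 1 of which had an unadjusted p under 0.05 and 0 of which DESeq2 called.

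KLF4 also rose after loss of RANGAP1 and GANP. RANGAP1-AID cells had 25.0, 23.4 and 23.6 CPM untreated, 38.2, 37.8 and 40.9 CPM after 2 h and 32.8, 31.4 and 35.7 CPM after 8 h. The 3 ranges were separate, and the log2 fold changes against untreated were 0.69 ± 0.08 (edgeR adjusted p = 0.00409) at 2 h and 0.47 ± 0.076 (adjusted p = 0.00158) at 8 h. In AID-GANP cells it went from 23.3, 22.9 and 22.4 CPM to 34.9, 38.0 and 32.6 CPM, again without overlap, a change of 0.62 ± 0.08 (adjusted p = 0.000255). AID-NXF1 cells had overlapping ranges of 27.1, 30.8 and 25.9 CPM before and 20.5, 26.4 and 25.9 CPM after auxin, and the change of −0.20 ± 0.098 did not pass (adjusted p = 0.173). In NUP153-AID cells at 2 h KLF4 stood at 28.5 to 33.5 CPM against 23.4 to 24.9 CPM untreated, and in NUP50-AID cells at 3 h at 32.9 to 42.2 against 25.5 to 30.3 CPM. Neither pair of ranges overlapped, with log2 values of 0.36 (adjusted p = 0.268) and 0.41 (adjusted p = 0.347). At the long exposures of these lines KLF4 overlapped its untreated range, at 20.8 to 24.2 CPM after 8 h without NUP153 (−0.14, adjusted p = 0.561) and 27.5 to 31.5 CPM after 9 h without NUP50 (0.08, adjusted p = 0.733). The DLD-1 libraries labelled auxin had 20.6, 23.3 and 25.5 CPM of KLF4 and those labelled untreated 26.1, 34.0 and 34.1 CPM. They did not overlap, at −0.44 ± 0.11 (adjusted p = 0.657, unadjusted p = 0.0025), and were the labels read the other way the sign would turn.

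KLF6, a tumour suppressor of the same activating group, was above 0 in 10 of the 11 log2 fold changes without being called in any. Its highest value was 0.98 ± 0.21 at 2 h of RANGAP1 loss, where it went from 27.2, 33.7 and 44.3 CPM to 58.9, 57.8 and 92.6 CPM. These groups did not overlap, and the adjusted p was 0.114. In plain AID-TPR cells KLF6 had 29.2, 34.7 and 33.3 CPM untreated and 39.7, 69.3 and 61.6 CPM after auxin, and in AID-GANP cells 51.4, 97.1 and 59.1 CPM untreated and 72.7, 161 and 102 CPM after auxin. In both lines replicate 2 was the highest of its group after auxin. With the replicate number as a block, KLF6 was called higher at 2 h in TPR (0.79, adjusted p = 2.88e-14), RANGAP1 (0.98, adjusted p = 1.17e-11) and NXF1 loss (0.47, adjusted p = 3.65e-07), in GANP loss (0.68, adjusted p = 9.08e-35) and at 8 h of RANGAP1 loss (0.39, adjusted p = 2.98e-09), and in these lines the numbers paired the libraries. At 8 h of RANGAP1 loss KLF6 had 40, 43.9 and 53.8 CPM, wholly below its 2 h libraries, a difference of −0.60 ± 0.17 (edgeR adjusted p = 0.0395). This call was lost without any 1 of 4 of the 6 libraries and in a single fit over all libraries, with log2 values from −0.74 to −0.34 when a library was left out.

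KLF2 was the scarcest member, with log2 values above 0 in 9 of 11 and no call. Its highest value was in the old AID-TPR libraries, where it had 1.38, 1.65 and 1.83 CPM untreated, 3.0, 2.61 and 4.13 CPM at 2 h and 3.13, 2.88 and 2.67 CPM at 8 h. Neither auxin group overlapped the untreated one, and the log2 fold changes of 1.00 ± 0.25 and 0.84 ± 0.23 had adjusted p values of 0.153 and 0.07. With the block KLF2 was called higher after TPR loss in the plain set (0.39, adjusted p = 0.0407) and after GANP loss (0.65, adjusted p = 1.46e-06). KLF5, the abundant crypt factor, was called only after loss of NXF1, where it went from 152, 177 and 160 CPM to 93.5, 102 and 101 CPM. Every auxin library was below every untreated one, and the log2 fold change was −0.72 ± 0.062 (adjusted p = 1.65e-05). In the other 10 comparisons of protein loss its log2 values were between −0.32 and 0.26.

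KLF3, the CtBP-recruiting repressor, fell with KLF5 after loss of NXF1. Its levels were 36.7, 40.1 and 40.8 CPM untreated and 20.2, 20.5 and 21.5 CPM after auxin. The groups were far apart relative to their spread, at −0.92 ± 0.064 (edgeR adjusted p = 5.86e-06). In AID-GANP cells KLF3 had 36.2, 45.1 and 43.2 CPM untreated and 30.1, 36.8 and 28.0 CPM after auxin. These ranges overlapped, and although the test passed (adjusted p = 0.0262) the change of −0.39 ± 0.11 was short of the fold required. After 8 h without NUP153 KLF3 stood at 41.4 to 56.7 CPM, below 58.0 to 76.7 CPM untreated, at −0.44 ± 0.13 (adjusted p = 0.126).

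Of the Sin3A-recruiting members, KLF9, a gene known to respond to glucocorticoids and thyroid hormone, was the one most often called lower. NXF1 loss took it from 49.0, 69.0 and 57.6 CPM to 24.1, 25.3 and 19.3 CPM. The groups did not overlap, and −1.35 ± 0.12 (edgeR adjusted p = 2.2e-05) was the lowest log2 value of any member after loss of a protein. GANP loss took it from 22.3, 35.8 and 34.0 CPM to 13.1, 21.9 and 12.8 CPM, without overlap, at −0.95 ± 0.22 (adjusted p = 0.00822). In plain AID-TPR cells the ranges of 50.5, 90.3 and 47.8 CPM untreated and 37.9, 58.7 and 41.3 CPM after auxin overlapped, and the value of −0.45 ± 0.24 did not pass (adjusted p = 0.591). Without the untreated replicate 2, where KLF9 was highest, that value was −0.10, and without the auxin replicate 2 it was −0.67.

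In NUP153-AID and RANGAP1-AID cells KLF9 lay above its untreated level at the short exposure and below it at the long one, with only the second called. NUP153-AID cells had 75.0, 72.4 and 90.7 CPM untreated, 105, 96.2 and 117 CPM at 2 h and 41.9, 42.9 and 45.4 CPM at 8 h. All 3 groups were separate, with −0.87 ± 0.091 at 8 h (edgeR adjusted p = 0.00501) and 0.42 ± 0.096 at 2 h, which had an adjusted p of 0.389 and, with the replicate block, of 3.13e-07. RANGAP1-AID cells had 46.1, 46.5 and 60.6 CPM untreated, 70.6, 66 and 87.8 CPM at 2 h and 29.2, 28.7 and 28.9 CPM at 8 h. Here too the groups were separate, with −0.82 ± 0.11 at 8 h (adjusted p = 0.000403) and 0.54 ± 0.14 at 2 h (adjusted p = 0.197, or 1.96e-08 with the block). NUP50-AID cells had 53.5, 61.0 and 80.7 CPM untreated, 69.2, 92.6 and 120 CPM at 3 h and 54.8, 55.8 and 56.4 CPM at 9 h. Both auxin groups overlapped the untreated one, at 0.53 ± 0.18 (adjusted p = 0.573) and −0.23 ± 0.12 (adjusted p = 0.377). In old AID-TPR cells KLF9 kept within 29.8 to 37.9 CPM in all 9 libraries, with log2 values of −0.06 at both times. In the DLD-1 libraries labelled auxin KLF9 was at −0.37 with the block (edgeR adjusted p = 0.000767), short of the fold required. It was not called there without the block either, and were the labels read the other way the sign would turn.

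The long exposure was tested directly against the short one, and these groups share no library. No DLD-1 libraries have auxin for 8 h or 9 h, and the untreated libraries of the tagged lines carry no time. Protein loss, time in auxin and time in culture therefore cannot be told apart in these differences. In NUP153-AID cells 3 members were called lower at 8 h than at 2 h (1.93% of all genes called), KLF9 at −1.30 ± 0.079 (edgeR adjusted p = 2.24e-05), KLF3 at −0.59 ± 0.12 (adjusted p = 0.0256) and KLF5 at −0.58 ± 0.10 (adjusted p = 0.0149). KLF4 passed the test at −0.51 ± 0.093 (adjusted p = 0.0163) with a fold just short of the bound. The KLF3 call was lost without any 1 of 4 of the 6 libraries and the KLF5 call without any 1 of 3, while the KLF9 call was kept without any of the 6. In RANGAP1-AID cells 3 members were called (8.77%), KLF9 lower at −1.37 ± 0.10 (adjusted p = 6.95e-05), KLF6 lower as given above and KLF16 higher at 0.42 ± 0.11 (adjusted p = 0.0339), a call lost without any 1 of 4 of the 6 libraries. KLF2 joined them with the block, at −0.94 (adjusted p = 0.00101). In NUP50-AID cells 0 members were called (0.225%; 3 members and 1486 genes had an unadjusted p under 0.05, and DESeq2 called 1 and 75). There KLF9 did not overlap between 9 h and 3 h, at −0.76 ± 0.15 (adjusted p = 0.0876, or 2.61e-05 with the block). In old AID-TPR cells 0 of 17812 genes and 0 members were called between 8 h and 2 h (0.0%; 48 genes and 0 members had an unadjusted p under 0.05, and DESeq2 called 0 of each), and KLF9 differed by 0.0084 ± 0.15.

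**Figure D3:**
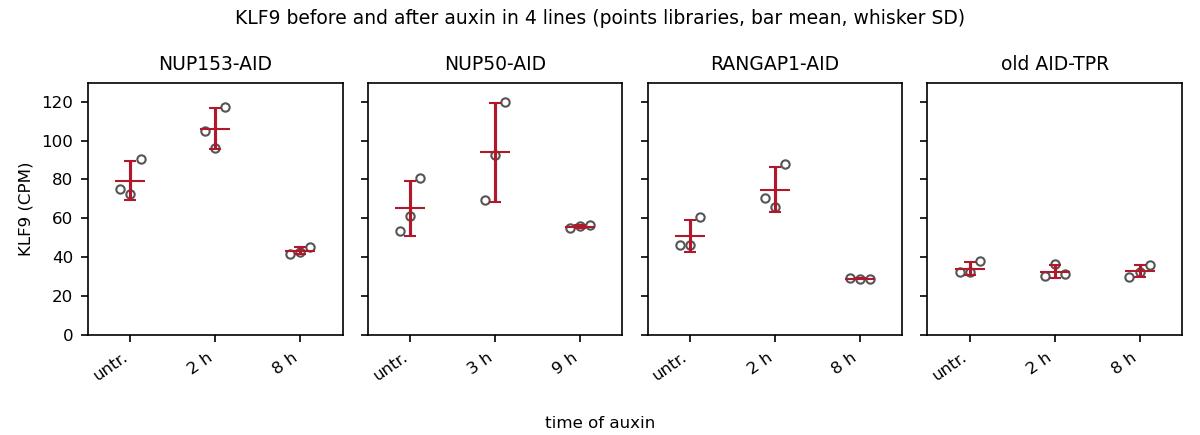
KLF9 in CPM in NUP153-AID, NUP50-AID, RANGAP1-AID and old AID-TPR cells, untreated and after the short and long exposure to auxin. Points are libraries, bars the mean of 3 and whiskers the SD. In NUP153-AID and RANGAP1-AID cells the short exposure lies above and the long one below the untreated libraries, and in old AID-TPR cells all 9 libraries lie between 29.8 and 37.9 CPM.

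KLF10, known for its early induction by TGF-beta, was the member with the highest log2 value. In old AID-TPR cells it had 45.6, 48.3 and 49.8 CPM untreated, 68.3, 156 and 112 CPM at 2 h and 143, 140 and 133 CPM at 8 h. Both auxin groups were above the untreated one, the 2 h libraries were widely spread and the 8 h ones close together. The change at 8 h was 1.54 ± 0.11 (edgeR adjusted p = 0.000334), kept without any 1 library, and that at 2 h was 1.23 ± 0.25 (adjusted p = 0.076). In plain AID-TPR cells KLF10 had 58.1, 147 and 69.7 CPM untreated and 62.2, 144 and 57.2 CPM after auxin. Replicate 2 was high in both groups, which overlapped, and the value was −0.06 ± 0.39 (adjusted p = 0.975). The interaction between the sets was 1.29 ± 0.55 (unadjusted p = 0.0353, adjusted p = 1.0), so they were not shown to differ.

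GANP loss took KLF10 from 46.3, 51.6 and 41.9 CPM to 89.9, 182 and 107 CPM. All auxin libraries were above the untreated ones, with replicate 2 the highest, and the change was 1.44 ± 0.22 (edgeR adjusted p = 0.000659). In RANGAP1-AID cells it went from 29.9, 31.7 and 35.6 CPM to 48.1, 37.2 and 50.2 CPM at 2 h and 44.1, 41.4 and 53.7 CPM at 8 h. Neither auxin group overlapped the untreated one, at 0.47 ± 0.12 (adjusted p = 0.204, or 1.79e-05 with the block) and 0.52 ± 0.11 (adjusted p = 0.00563). The 8 h call was lost in a single fit over all libraries. NXF1 loss gave overlapping ranges of 52.5, 85.7 and 81.9 CPM and 35.6, 44.5 and 69.2 CPM, at −0.55 ± 0.22 (adjusted p = 0.089), or −0.57 (adjusted p = 3.86e-06) with the block.

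KLF11, the closest relative of KLF10 and likewise known from the response to TGF-beta, was lower after loss of NXF1 and higher after loss of GANP. AID-NXF1 cells went from 15.6, 13 and 11.6 CPM to 10.5, 8.96 and 8.28 CPM, and AID-GANP cells from 6.87, 8.27 and 6.78 CPM to 10.2, 10.7 and 8.88 CPM. Neither pair overlapped, at −0.54 ± 0.12 (edgeR adjusted p = 0.00847) and 0.44 ± 0.12 (adjusted p = 0.018). Each call was lost without any 1 of 2 libraries (in AID-NXF1 the auxin replicate 3 or the untreated replicate 1, in AID-GANP the auxin replicate 2 or the untreated replicate 3) and in a single fit over all libraries, and that after GANP loss also with library sizes alone as the scale. In old AID-TPR cells single libraries stood out. KLF11 had 13.1, 14.3 and 15.8 CPM untreated, 13.6, 37.6 and 13.7 CPM at 2 h and 34.4, 10.3 and 39.3 CPM at 8 h. The groups overlapped at both times, and without the 8 h replicate old2, the low one, KLF11 was called higher at a log2 value of 1.35 against 0.96 ± 0.39 (adjusted p = 0.17) with all 3.

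KLF16 and KLF13 fell after GANP loss. KLF16 had 18.3, 19.6 and 19.4 CPM untreated and 11.3, 12.3 and 12.4 CPM after auxin, and KLF13, a regulator known from T lymphocytes, had 34.4, 47.5 and 42.7 CPM untreated and 23.4, 28.4 and 28.5 CPM after auxin. Neither gene overlapped, at −0.68 ± 0.083 (edgeR adjusted p = 0.000178) and −0.64 ± 0.12 (adjusted p = 0.0029). In plain AID-TPR cells KLF16 went from 27.1, 31.4 and 26.1 CPM to 18.9, 18.0 and 20.8 CPM. The groups were separate and the value of −0.55 ± 0.097 was called (adjusted p = 0.0382), but the call was lost without any 1 of the 6 libraries. AID-NXF1 cells went from 29.4, 31.1 and 30 CPM to 21.7, 22.5 and 21.8 CPM of KLF16. These tight groups did not overlap and the test passed (adjusted p = 0.000246), but −0.46 ± 0.059 was short of the fold of 0.7, which it reached when scaled by library sizes alone. In old AID-TPR cells KLF16 ranged from 22.8 to 39.7 CPM untreated and from 16.4 to 28.9 CPM at 2 h, which overlap. After 8 h without TPR it ranged from 15.8 to 27.3 CPM, which overlap the untreated libraries too, at −0.41 ± 0.25 (adjusted p = 0.361). The log2 values were 0.15 after 8 h without NUP153 (adjusted p = 0.498), 0.41 ± 0.084 after 9 h without NUP50 (adjusted p = 0.0588) and 0.35 ± 0.12 after 8 h without RANGAP1 (adjusted p = 0.056).

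NXF1 and GANP loss were then compared with each other by an interaction test, with the exposures of 2 h and 3 h not matched. The responses of 5 members differed (2.62% of all genes), and all 5 were lower after loss of NXF1 relative to GANP. The differences in log2 fold change were −2.03 ± 0.36 for KLF10 (edgeR adjusted p = 0.0069), −1.02 ± 0.18 for KLF11 (adjusted p = 0.00599), −0.86 ± 0.13 for KLF4 (adjusted p = 0.00331), −0.85 ± 0.16 for KLF5 (adjusted p = 0.00794) and −0.56 ± 0.14 for KLF3 (adjusted p = 0.0451). The KLF3 difference was lost with RLE normalization and without any 1 of 9 of the 12 libraries. KLF9 fell in both lines and was not shown to differ (−0.44 ± 0.28, adjusted p = 0.525). With the replicate block 8 members differed, KLF6, KLF9 and KLF13 in addition. The share of all genes under the block is not given here, so this count cannot be set against the 2.62%.

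**Figure D4:**
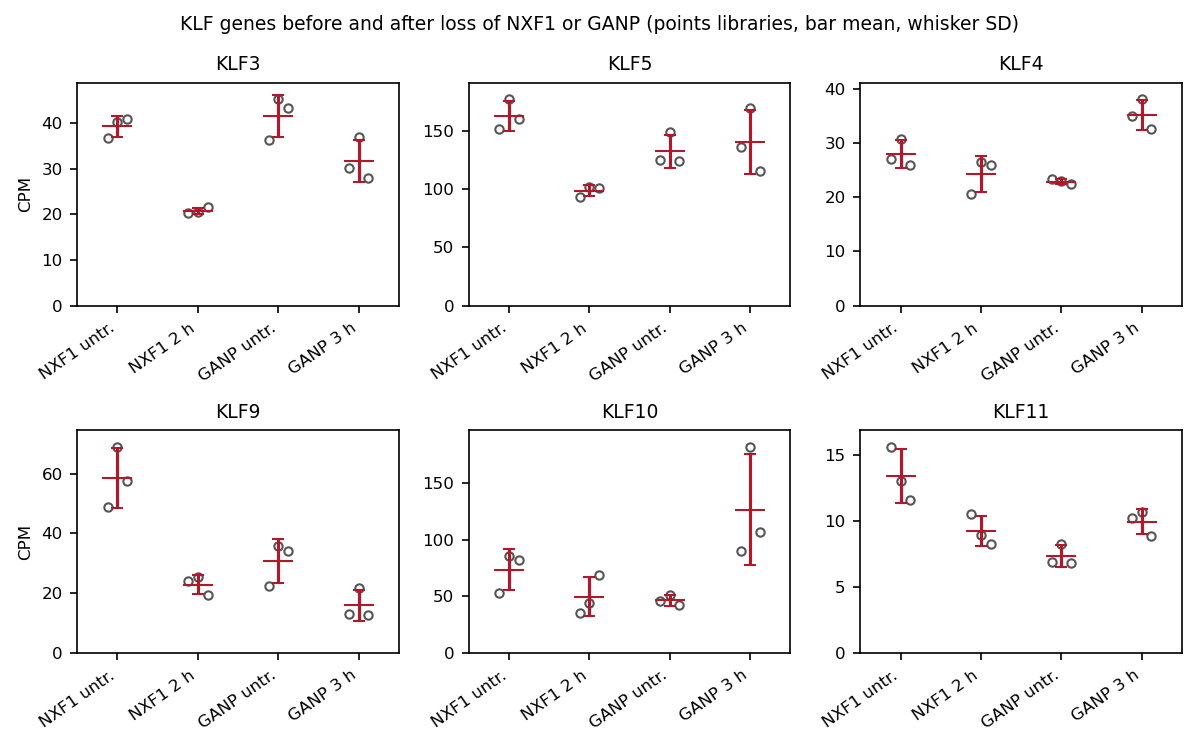
KLF3, KLF5, KLF4, KLF9, KLF10 and KLF11 in CPM in AID-NXF1 cells before and after 2 h of auxin and in AID-GANP cells before and after 3 h. Points are libraries, bars the mean of 3 and whiskers the SD. KLF3 and KLF5 drop in AID-NXF1 cells, KLF4, KLF10 and KLF11 lie higher after auxin in AID-GANP cells, and KLF9 lies lower after auxin in both.

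TPR loss in the plain set was set against the other losses in the same way. Against NXF1 loss, 2 members differed (2.28% of all genes), KLF4 by 0.73 ± 0.18 (edgeR adjusted p = 0.04) and KLF5 by 0.63 ± 0.15 (adjusted p = 0.0406), both higher after TPR loss. Both were lost with RLE normalization, KLF4 also without any 1 of 8 of the 12 libraries and KLF5 without any 1 of 10, and with the block 7 members differed. Against GANP loss 0 members differed (5.77%; 2 had an unadjusted p under 0.05 and DESeq2 found 0), against NUP153 loss 0 (0.646%; 4 and 1), against NUP50 loss at 3 h 0 (0.124%; 3 and 1) and against RANGAP1 loss 0 (0.298%; 3 and 0). Over all genes the last 2 counts were 3197 and 1256 for GANP loss and 1150 and 262 for NUP153 loss. For NUP50 loss they were 1756 and 212, and for RANGAP1 loss 1114 and 150. The replicate block raised the members that differed to 4 for GANP (KLF3, KLF9, KLF10 and KLF11), 5 for NUP153 (KLF3, KLF5, KLF6, KLF9 and KLF16) and 4 for RANGAP1 (KLF5, KLF9, KLF10 and KLF16). The shares of all genes under the block are not given here, so no block count can be set against the percentages above. The KLF9 difference without the block was −0.88 ± 0.30 against NUP153 loss and −1.0 ± 0.31 against RANGAP1 loss, with adjusted p values of 0.369 and 0.335.

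ActD lowered 8 of the 10 members within 2 h, against 21.1% of all genes called in either direction and 12.3% called lower. The ActD libraries have plain replicate numbers and were compared with untreated old AID-TPR libraries, which like them hold mitochondrial counts, so ActD and the label set cannot be told apart. The untreated plain and old libraries themselves differed in mean level, at 62.9 and 34.1 CPM for KLF9 and 91.6 and 47.9 CPM for KLF10. KLF4 went from 31.4, 28.1 and 32.5 CPM to 8.47, 9.91 and 8.64 CPM, and its value of −1.74 ± 0.12 (edgeR adjusted p = 3.16e-05) was the lowest among the members. KLF16 (−1.0 ± 0.20), KLF5 (−0.93 ± 0.11), KLF3 (−0.86 ± 0.17) and KLF11 (−0.69 ± 0.15) were lower without overlap, with adjusted p values of 0.0063, 0.000583, 0.00682 and 0.00917. KLF2 (−0.98 ± 0.25, adjusted p = 0.0172) was lower without overlap as well, but its call was lost without untreated replicate old2 or old3. KLF10 had 19.0, 42.5 and 21.0 CPM, all below the untreated libraries, at −0.78 ± 0.25 (adjusted p = 0.0433). KLF6 had 9.68, 9.15 and 22.4 CPM, the last of which overlapped the lowest untreated library at 22.4 CPM, at −0.98 ± 0.32 (adjusted p = 0.0483). The calls on KLF6 and KLF10 were each lost without any 1 of 5 of the 6 libraries, that on KLF6 also with DESeq2, and the call on KLF11 in a single fit over all libraries. KLF9, at 30.8, 34.7 and 33.1 CPM against 32.3, 32.3 and 37.9 CPM, and KLF13, at 3.27 to 5.52 against 4.31 to 5.15 CPM, overlapped their untreated ranges, with log2 values of −0.02 ± 0.11 and −0.13 ± 0.21 (adjusted p = 0.959 and 0.703). CPM are shares of the RNA present, so after a block of transcription a value says how a gene moved relative to the others, not how much RNA was left. In bulk RNA, fewer cells of a type and less RNA per cell cannot be told apart. With library sizes alone as the scale, the split of all called genes went from 1565 higher and 2194 lower to 629 and 2918. All 8 members stayed lower on that scale.

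Under ActD, auxin changed none of the members by the test (0 of 10, and 0.0% of all genes; 0 members and 78 genes had an unadjusted p under 0.05, and DESeq2 called 0 of each). KLF4 had 8.47, 9.91 and 8.64 CPM with ActD alone and 10.0, 10.2 and 9.09 CPM with ActD and auxin, which overlap, at 0.12 ± 0.11. KLF10 had 19.0, 42.5 and 21.0 CPM and 17.8, 43.9 and 22.0 CPM, with replicate 2 high in both groups, at 0.02 ± 0.41. The effect of auxin with ActD was set against that without it in the old libraries, and 0 members differed (0.0225% of all genes). An unadjusted p under 0.05 was found for 2 members and 1265 genes, and DESeq2 called 1 and 118. The difference was −0.71 ± 0.16 for KLF4 (unadjusted p = 0.000636, adjusted p = 0.195) and −1.20 ± 0.51 for KLF10 (unadjusted p = 0.0322, adjusted p = 0.669).

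**Figure D5:**
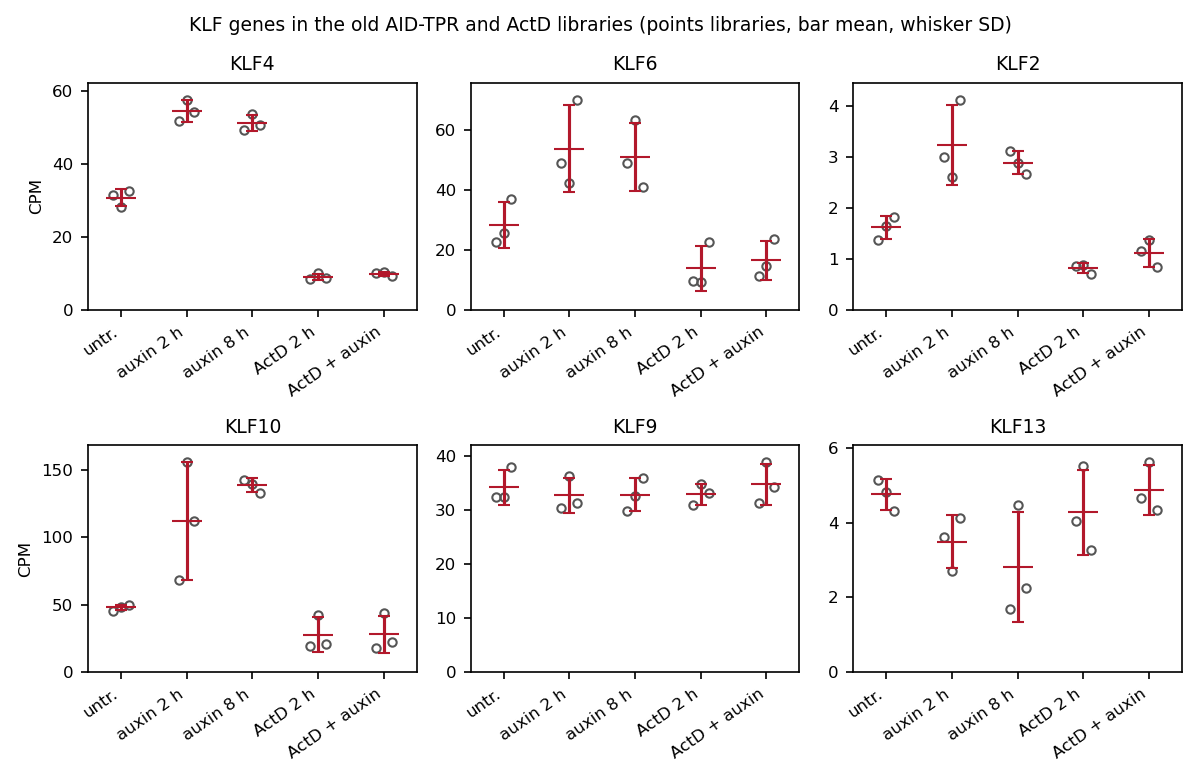
KLF genes in CPM in old AID-TPR cells, untreated and after 2 h and 8 h of auxin, and in AID-TPR cells given ActD for 2 h without and with auxin. Points are libraries, bars the mean of 3 and whiskers the SD. KLF4 lies at 49.2 to 57.5 CPM after auxin, at 28.1 to 32.5 CPM untreated and at 8.47 to 10.2 CPM in all ActD libraries.

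Other genes of the family and of its pathways were taken from fixed lists. Of 7 other KLF genes 3 were tested, and among the protein losses only KLF15 was called, lower after 8 h without RANGAP1 (−1.61), after loss of NXF1 (−0.65) and after loss of GANP (−1.11). Of 9 SP genes, the nearest relatives of the KLFs, 6 were tested. SP5 and SP6 fell after loss of NXF1 (−0.52 and −1.13) and of GANP (−0.90 and −1.49), SP6 fell after 8 h without TPR (−1.66), and ActD lowered SP2 (−0.73) and SP5 (−1.33). None of 6 corepressor genes (CtBP, Sin3 and histone deacetylase genes) was called in any protein loss or with ActD. Of 7 genes of the ERK5 and MEF2 route to KLF2 and KLF4, ActD lowered MAPK7 (−0.92), which encodes ERK5, and MEF2D (−0.87), and none was called after a protein loss.

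Of 8 TGF-beta pathway genes, all tested, SMAD7, the feedback inhibitor of the pathway, rose after 8 h without TPR (0.70 ± 0.14, edgeR adjusted p = 0.0362), 2 h without RANGAP1 (0.64 ± 0.084, adjusted p = 0.00835) and 3 h without GANP (0.65 ± 0.085, adjusted p = 0.000283). KLF10 was called higher in the first and the last of these, and also after 8 h without RANGAP1, where 0 of the 8 were called. SMAD3, a signal carrier of the pathway, fell after loss of GANP (−0.63). ActD lowered SMAD7 (−1.68), TGFBR2 (−0.67) and SMAD3 (−0.63). Of 6 glucocorticoid response genes 4 were tested. After loss of NXF1 and of GANP, where KLF9 fell, TSC22D3 also fell (−0.79 and −0.88) and the phosphatase gene DUSP1 rose (0.95 and 1.05), and PER1 rose after GANP loss (0.52). After 8 h without RANGAP1, where KLF9 fell, TSC22D3 rose (1.55), and after 8 h without NUP153, where KLF9 fell as well, 0 of the 4 were called. ActD lowered DUSP1 (−0.90), TSC22D3 (−0.79) and PER1 (−0.66). Of 3 ubiquitin ligase genes that act on KLF proteins, SMURF1 was lowered by ActD (−0.67) and none was called after a protein loss.

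Among 8 genes known as targets of KLF4 and KLF5 in gut epithelium, 6 were tested. CDKN1A, the cell cycle inhibitor p21 that KLF4 is known to activate, fell after loss of NXF1 (−1.10 ± 0.25, edgeR adjusted p = 0.00981) and of GANP (−0.77 ± 0.23, adjusted p = 0.0286), in the second of which KLF4 itself rose. PDGFA, a KLF5 target, fell after loss of NXF1 with KLF5 (−1.20 ± 0.20, adjusted p = 0.00145) and rose after 8 h without RANGAP1 (1.5). CDKN1B rose at 2 h and 8 h of RANGAP1 loss (0.97 and 0.55), CDK1 fell at 8 h (−1.34), and CCNB1 rose after 8 h without NUP153 (0.40). ActD lowered CDKN1B (−1.32). Among epithelial markers CDX2 rose in RANGAP1 loss at 2 h (0.65) and 8 h (1.00), where KLF4 also rose. After GANP loss and in the old libraries of TPR loss, where KLF4 was called higher as well, no epithelial marker was called. ActD lowered VIL1 (−1.48), CDX2 (−1.12) and KRT8 (−0.79). Of the 2 tested markers of other cell types CD68 was lowered by ActD (−2.70). Between the long and the short exposure, CDKN1A (−1.84) and CDX2 (−0.58) were lower at 8 h in NUP153-AID cells. In RANGAP1-AID cells KLF15 (−1.46), CDK1 (−1.18) and CDKN1A (−1.01) were lower at 8 h, and TSC22D3 (1.33) and PDGFA (1.23) higher. In the interaction tests, the response to TPR loss was above that to NXF1 loss for CDKN1B (0.69) and VIL1 (0.55). It was above that to GANP loss for SP5 (1.01), KLF7 (0.59), SMAD3 (0.56), CDKN1B (0.54), MAP3K2 (0.45) and KLF12 (0.44) and below it for DUSP1 (−0.70). The response to NXF1 loss was below that to GANP loss for SMAD7 (−0.62) and SIN3A (−0.41).

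The genes whose log2 fold changes were most like those of each member were sought over the 8 short comparisons that share no library, among 14632 genes averaging 50 or more counts per library. Each r rests on 8 points, among them both sets of TPR loss and the DLD-1 comparison, whose labels are in doubt. Were those labels read the other way, that point would change sign in every r. The genes are the highest of all, so the values are a description. For KLF4 they were GNAI1 (r = 0.98) and ROCK2 (0.979), for KLF5 KANSL1 (0.989) and LNX2 (0.978), for KLF6 LPAR1 (0.95) and GTPBP10 (0.936), and for KLF2 ENSG00000254433 (0.986) and EOGT (0.969). For KLF3 FZD6 (0.985) was among them. For KLF9 they were SPTY2D1 (0.985) and CITED2 (0.984), and for KLF10 MAP3K1 (0.965) and RAE1 (0.965). KLF11 was most like LIN54 (0.99) and ATP2B1 (0.984), KLF13 like CRADD (0.965) and KLHDC8B (0.955), and KLF16 like DUSP7 (0.988) and EFNB1 (0.973). Among the members themselves KLF3 and KLF5 (0.862), KLF10 and KLF11 (0.851) and KLF3 and KLF9 (0.836) were most alike over these comparisons, and KLF2 and KLF13 (−0.755) were the most opposed.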

How the data were processed

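Total RNA depleted of ribosomal RNA was sequenced from 66 libraries. The authors aligned reads to GRCh38 with STAR and deposited raw counts of reads per Ensembl gene from featureCounts, without normalization. The submitters' processing notes name CASAVA 1.8.2, STAR 2.6.1c and featureCounts 1.5.2, and the study's methods name earlier versions of STAR and featureCounts. The strand setting is not given in the sources used here. The study describes its replicates as independent and biological.

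Symbols, coordinates and exon lengths were taken from GENCODE release 44, which held 56948 of the 58051 identifiers. Testing was limited to 17812 genes that passed 1 CPM (counts scaled to a common library size) in 4 or more of 60 libraries, leaving ActD aside, and that held at least 99.76% of the counts of each library. Each treated group was compared with its control in a fit of these 6 libraries by edgeR's quasi-likelihood test on TMM-scaled counts (edgeR 4.0.16, limma 3.58.1, R 4.3.3), with Benjamini-Hochberg adjustment over all tested genes. For a call the adjusted p had to be under 0.05 and the ratio to the control 1.3 or more (log2 0.38) or 0.7 or less (log2 −0.51). Outside the ActD comparisons, any gene that passed in DLD-1 was dropped from the calls of tagged lines. Interactions were fitted over 12 libraries and called at an adjusted p under 0.05. CPM were scaled by TMM within a line, and levels across lines are descriptive. CPM per kilobase divides by the length of the merged exons.

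The alternatives tried were DESeq2 1.42.0, RLE normalization, scaling by library sizes alone, no filter, a filter with FPKM added, one fit over all libraries, the same fold of 1.3 in both directions, keeping the DLD-1 genes, the replicate number as a block, and each library left out in turn. Numbers were taken to pair libraries where the residuals of every number correlated above 0.1, which held in 9 of 17 comparisons (r from −0.541 to 0.907 over all): TPR 2 h (plain and under ActD), NUP153 2 h, RANGAP1 2 h and 8 h, NXF1, GANP, and the time comparisons of NUP50 and RANGAP1. No replicates looked like copies of 1 library, with a chi-square per degree of freedom of 4.07 to 67.4. All members are named, list genes where called, and for likeness the 2 genes with the highest r, of which 1 is not reported here. The members and lists were chosen with earlier results of these data known. Sequences are from RefSeq. Python 3.11.15, numpy 2.4.6, pandas 2.3.3 and matplotlib 3.10.9 were used for tables and figures.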

Additional observations from a re-analysis of the deposited data

Results flagged for a closer look

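These results were singled out because responses to auxin differed between lines that lose different proteins or between times, each by a test of the difference itself. Between the long and the short exposure to auxin in NUP153-AID cells, the log2 differences were −1.30 for KLF9, −0.59 for KLF3, −0.58 for KLF5 and −0.51 for KLF4. In RANGAP1-AID cells they were −1.37 for KLF9, −0.60 for KLF6 and 0.42 for KLF16. Between NXF1 loss and GANP loss the differences of log2 fold changes were −2.03 for KLF10, −1.02 for KLF11, −0.86 for KLF4, −0.85 for KLF5 and −0.56 for KLF3. Between TPR loss in the plain set and NXF1 loss they were 0.73 for KLF4 and 0.63 for KLF5. Both of these were lost with RLE normalization, as was that of KLF3 between NXF1 and GANP loss. They were also lost without any 1 of most of the 12 libraries. Of the 17812 genes, 466 passed between NXF1 and GANP loss and 407 between TPR and NXF1 loss. Between the exposures 546 passed in NUP153-AID cells and 2707 in RANGAP1-AID cells. There protein loss, time in auxin and time in culture cannot be told apart. The exposures of AID-NXF1 and AID-GANP cells were not matched, and the part of time in their differences was not tested.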

How the results depend on the processing

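Of 40 calls on members, 31 were kept in every alternative, 25 with any library left out and 23 in both, and none changed sign. Counts of members called moved by more than 1.5 times as follows, and the cause was not tested. For TPR loss the calls over all genes moved too. DESeq2 called 193 of them against 85 at 2 h, 421 against 79 in the old libraries and 1894 against 639 at 8 h. One fit over all libraries called 18 higher and 138 lower at 2 h, against 13 and 72. In the old libraries it called 631 and 1125 at 2 h, against 24 and 55. At 8 h it called 1515 and 1862, against 219 and 420. For other settings and comparisons the shares of all genes are not listed beside the members. For TPR loss at 2 h (1 member) DESeq2 and no filter gave 3, one fit over all libraries 2 and the block 4, in the old libraries (1) DESeq2 and one fit gave 4, no filter 5 and the block 3, and at 8 h (2) DESeq2 and no filter gave 4 and one fit 6. For NUP153 loss at 2 h (0) DESeq2, no filter and the block gave 1. For NUP50 loss at 3 h (0) no filter and the block gave 2, and at 9 h (0) library sizes alone, DESeq2, no filter and the block gave 1, as did DESeq2, no filter and the block for 9 h against 3 h (0). For RANGAP1 loss at 2 h (1) DESeq2 gave 3 and no filter and the block 4. For TPR loss against NUP153 loss (0) DESeq2 gave 1, no filter 2 and the block 5, against NUP50 loss (0) DESeq2 gave 1 and no filter and the block 3, against RANGAP1 and GANP loss (0 each) no filter gave 2 and the block 4, and against NXF1 loss (2) RLE gave 0, DESeq2 4, no filter 6 and the block 7. For NXF1 against GANP loss (5) the block gave 8, for the old against the plain set (0) no filter gave 1, and for TPR loss with against without ActD (0) DESeq2 and no filter gave 1 and the block 2. A fold of 1.3 in both directions added KLF16 for NXF1 loss, KLF3 for GANP loss and KLF4 for the long against the short exposure in NUP153-AID cells, and keeping the DLD-1 genes changed no count. With 1 library left out, the counts ran from 0 to 1 for TPR loss at 2 h in both sets, NUP50 loss at 3 h, at 9 h and between them, DLD-1, and TPR loss against NUP50 and GANP loss. They ran from 1 to 6 for TPR loss at 8 h, 1 to 2 for NUP153 loss at 8 h and RANGAP1 loss at 2 h, 3 to 5 for RANGAP1 loss at 8 h, 4 to 5 for NXF1 loss and for NXF1 against GANP loss, 5 to 8 for GANP loss, 5 to 7 for ActD, 1 to 4 and 1 to 3 for the long against the short exposure in NUP153-AID and RANGAP1-AID cells, and 0 to 4 for TPR against NXF1 loss. The replicate number was a block only where the design allowed it, which ActD against untreated libraries did not, and the block changed no other member call where the numbers paired the libraries. In the comparisons not listed above as paired, among them those of old AID-TPR libraries and of NUP50-AID with untreated cells, pairing was not shown for every number. At 9 h of NUP50 loss, for example, r was 0.611, 0.081 and 0.48. At 8 h of NUP153 loss r was −0.496, 0.332 and −0.5. Of 3610 alternative values of single members, 3207 kept direction and call, 83 lost a call, 148 gained one and 172 that were not called changed sign. With library sizes alone NXF1 loss called 252 genes higher and 1307 lower, against 389 and 1057. KLF2 (16 to 235 reads per library) and KLF13 in the 42 libraries with mitochondrial counts had the least depth.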
